A study of Mus musculus with 5 samples.

Results

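The genes examined here were the 4 myogenic regulatory factors, Myod1, Myf5, Myog and Myf6. Their peaks of trimethylated histone H3 lysine 27 (H3K27me3) were taken from chromatin immunoprecipitation sequencing (ChIP-seq) of mouse molar mesenchyme. A peak was counted for a gene when at least 1 base of it lay in the gene or in the 5 kb on either side, with gene coordinates from GENCODE M21 on GRCm38. By this rule 4 of the 81017 peaks in the 3 deposited lists belonged to the 4 genes. All tissue came from wildtype C57BL/6 mice at postnatal day 3, with the dental epithelium taken off, and no group carried a transgene or a treatment. Sequencing covered 2 H3K27me3 libraries, 2 inputs (chromatin sequenced with no antibody step) and 1 control precipitated with IgG. The lists were H3K27me3 replicate 1 called against its input (22757 peaks), the same library called against IgG (24881 peaks) and H3K27me3 replicate 2 called against its own input (33379 peaks). The IgG-called list is therefore another reading of replicate 1 and not a further replicate, and every mean ± SD below is over the 2 input-called lists. The labels do not say whether animals were pooled or whether the libraries came from separate mice.

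Myogenic regulatory factors are basic helix-loop-helix (bHLH) transcription factors that bind the E-box, a short DNA motif, together with broadly expressed E proteins, and switch on the genes of skeletal muscle. Myf5 and Myod1 commit precursors to the muscle lineage, Myog drives their differentiation into fibres, and Myf6, also called Mrf4, acts in both steps. H3K27me3 is written by Ezh2, the enzyme of Polycomb repressive complex 2, and is known for keeping regulators of other lineages silent. Dental mesenchyme makes dentin, cementum and ligament and is not a muscle tissue.

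Each of the 4 peaks is shown because together they are all of the H3K27me3 signal called at these genes. They are printed 5′ to 3′ on the strand of the gene, from GRCm38.p6, with E-boxes (letters CANNTG) in capitals and all other bases in lower case.
Myod1 intron 1 and exon 2, replicate 1 against input, chr7:46377557-46377759, plus strand: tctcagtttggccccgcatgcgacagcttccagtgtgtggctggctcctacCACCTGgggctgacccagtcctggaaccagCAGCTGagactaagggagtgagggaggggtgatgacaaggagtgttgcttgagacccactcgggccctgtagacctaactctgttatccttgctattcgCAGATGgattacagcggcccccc
Myod1 upstream flank, replicate 1 against IgG, chr7:46374304-46374449, plus strand: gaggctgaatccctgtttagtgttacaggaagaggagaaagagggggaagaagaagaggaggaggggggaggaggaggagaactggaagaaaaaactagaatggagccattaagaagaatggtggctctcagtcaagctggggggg
Myog upstream flank, replicate 1 against input, chr1:134285871-134285916, plus strand: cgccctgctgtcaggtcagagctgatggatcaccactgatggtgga
Myf6 upstream flank, replicate 2 against input, chr10:107497814-107497884, minus strand: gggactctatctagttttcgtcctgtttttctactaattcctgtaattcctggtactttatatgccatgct

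Across the family, Myod1 and Myog had a peak in replicate 1, Myf6 had one in replicate 2, and Myf5 had none in any list. With a peak in both replicates there were 0 of 4 genes, for which the 95% Wilson interval reached 49.0%, while 15.7% of 21938 protein-coding genes had one in both. In exactly 1 of the replicates there were 3 of 4 members, and 29.4% of all genes. The members' count was 2 of 4 in replicate 1 against input, where 25.0% of protein-coding genes had a peak. It was 1 of 4 in replicate 1 against IgG, with 25.9% of all genes, and 1 of 4 in replicate 2, with 35.7%. In a bulk tissue, fewer cells that carry the mark and less of the mark in each cell cannot be told apart.

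Myod1 (ENSMUSG00000009471.4, chromosome 7, 46376474 to 46379099, plus strand), a determination factor, was the only member with a peak inside the gene. In replicate 1 against input its peak was 203 bp long, of which 183 bp lay in intron 1 and 20 bp in the coding sequence of exon 2. It began 1083 bp downstream of the 5′ end. The mean pileup was 3.39, which corresponds to 4.35 overlapping tags, and the fold enrichment over input was 2.74. When the same library was called against IgG, this peak was not listed, and a different one of 146 bp appeared 2025 bp upstream of the 5′ end, with a pileup of 3.76 and a fold enrichment of 2.55. These peaks were 3108 bp apart, so that the choice of control decided which of them was called. Replicate 2 had 0 peaks in this window of 12626 bp, and its closest peak lay 15.8 kb from the gene. Of the window, 1.61% lay under peaks in replicate 1 and 0% in replicate 2 (0.804% ± 1.14, SD, n = 2). The replicate 1 value exceeded that of 97.2% of protein-coding genes. Only 25.0% of them had a replicate 1 peak at all, so 1 short peak gives a high rank. Myog, with 46 bp covered, stood above 89.2% in the same list.

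Myf5 (ENSMUSG00000000435.1, chromosome 10, 107482908 to 107486134, minus strand), the other determination factor, had 0 peaks in a window of 13227 bp in each of the 3 lists. No peak in any list was found for 51.0% of protein-coding genes and for 75.7% of those with a window of at most 15 kb. The nearest peak to the Myf5 5′ end was 204.1 kb away in replicate 1 against input and 215.7 kb away against IgG, both downstream. In replicate 2 it was 11.7 kb away, upstream. Over all protein-coding genes the median distance from the 5′ end to a peak was 55.4 kb in replicate 1 against input and 31.4 kb in replicate 2. Only 14.9% of genes lay farther than Myf5 from a replicate 1 peak, whereas 75.2% lay farther than Myf5 from a replicate 2 peak. The position of Myf5 in the order of genes thus differed between the replicates.

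Myog (ENSMUSG00000026459.5, chromosome 1, 134289989 to 134292548, plus strand), which encodes the differentiation factor myogenin, had a single peak, called against input in replicate 1. This peak was 46 bp long and lay in the upstream flank, 4073 bp from the 5′ end. Its pileup was 3.23, or 4.14 tags, and its fold enrichment was 2.67. A length of 46 bp is the fragment length MACS used for this library and the shortest in the list, shared by 18.9% of its peaks. Coverage of the window of 12560 bp was 0.366% in replicate 1 and 0% in replicate 2 (0.183% ± 0.259, SD, n = 2). The closest replicate 2 peak lay 6.67 kb downstream of the gene, in the neighbouring gene Ppfia4, outside the 5 kb flank.

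Myf6 (ENSMUSG00000035923.4, chromosome 10, 107492853 to 107494737, minus strand) lies 6718 bp from Myf5, and 3282 bp of their windows are shared. In replicate 1 it had 0 peaks against either control, with the closest peak 212.7 kb from its 5′ end. In replicate 2 it had 1 peak of 71 bp in the upstream flank, 3077 bp from the 5′ end and outside the Myf5 window. The pileup was 6.07 tags and the fold enrichment 2.43. As at Myog, the peak had the shortest length in its list, which 12.3% of replicate 2 peaks share. It covered 0.597% of the window of 11885 bp, so that the mean was 0.299% ± 0.422 (SD, n = 2).

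**Figure D1:**
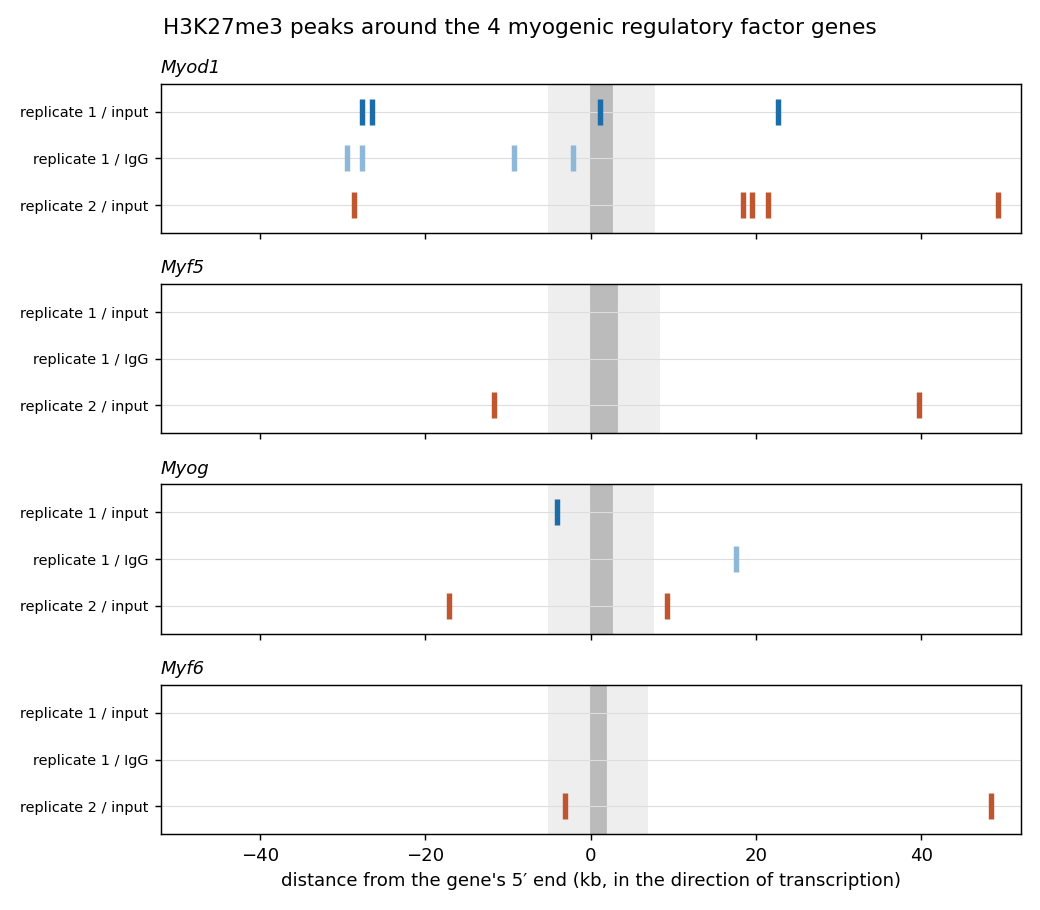
H3K27me3 peaks within 50 kb of the 5′ end of each gene, by distance in kb in the direction of transcription; a tick marks the centre of 1 peak and is wider than the peak, dark grey is the gene and light grey its 5 kb flanks. Only 4 ticks fall on grey, 2 at Myod1, 1 at Myog and 1 at Myf6, and none of these 4 has a tick of the other replicate on the same grey.

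Ranked by mean coverage, the order was Myod1, Myf6, Myog and Myf5. The SD of Myod1, 1.14 percentage points, was larger than its distance to any other member, and each member with a peak had it in only 1 of the replicates. Averaged over the 4 genes, 0.493% of bases were covered in replicate 1 but 0.149% in replicate 2 (0.321% ± 0.243, SD, n = 2). All protein-coding genes together averaged 0.222% and 0.316%, respectively. The replicate 1 mean of the family was therefore above and its replicate 2 mean below that of all genes.

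Gene length bears on these counts, since a longer window has more room for a peak. The 4 windows were 11885 to 13227 bp long, compared with a median of 27425 bp for protein-coding genes. Among the 4141 protein-coding genes whose window was at most 15 kb, a peak was present in 12.7% in replicate 1 against input, in 12.9% against IgG, in 15.2% in replicate 2 and in 6.16% in both replicates. In exactly 1 of the replicates 15.6% of these genes had a peak. Against this background the family's 2, 1 and 1 of 4 genes were higher shares. So was its 3 of 4 in exactly 1 replicate, while its 0 of 4 in both replicates was a lower share. With 4 genes, 1 gene more or less moves a share by 25.0 percentage points.

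The 5′ ends were free of called signal within 1 kb. Within 1 kb of the 5′ end there were 0 peaks at each of the 4 genes in each of the 3 lists. Among all protein-coding genes, 3.87% had such a peak in replicate 1 against input, 4.52% against IgG, 4.16% in replicate 2 and 1.04% in both replicates. A count of 0 among 4 genes is thus also what most genes show. At Myod1 the count depends on the distance chosen, since its peak in replicate 1 against input began 1083 bp from the 5′ end.

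Depth set a floor for these statements. After removal of duplicate tags, the H3K27me3 libraries held 30369351 tags in replicate 1 and 49947919 in replicate 2, the inputs 23688420 and 51681224, and the IgG library 24440452. The lowest pileup listed corresponded to 4 tags for replicate 1 and 6 tags for replicate 2, so a region with fewer overlapping tags would not appear in a list. Depth, tag length (49 and 74 bp) and replicate cannot be told apart.

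The 4 peaks at the family were ranked by height within their lists. The fold enrichment of the intronic Myod1 peak exceeded that of 67.8% of peaks in its list, the Myog peak that of 56.4%, the Myf6 peak that of 46.1% and the IgG-called Myod1 peak that of 2.42%. By the MACS p-value they stood above 13.7%, 27.1%, 44.8% and 8.53% of peaks, respectively, which was a lower rank than by fold enrichment for each except the IgG-called Myod1 peak. Their −log10 p-values were 2.48, 2.52, 2.50 and 2.45 in the same order, near the calling cutoff of 0.005. The −log10 q-value was listed as 0 for each. None reached a p-value of 0.001, a level passed by 3.27% of replicate 1 peaks against input, 11.3% against IgG and 11.0% of replicate 2 peaks.

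**Figure D2:**
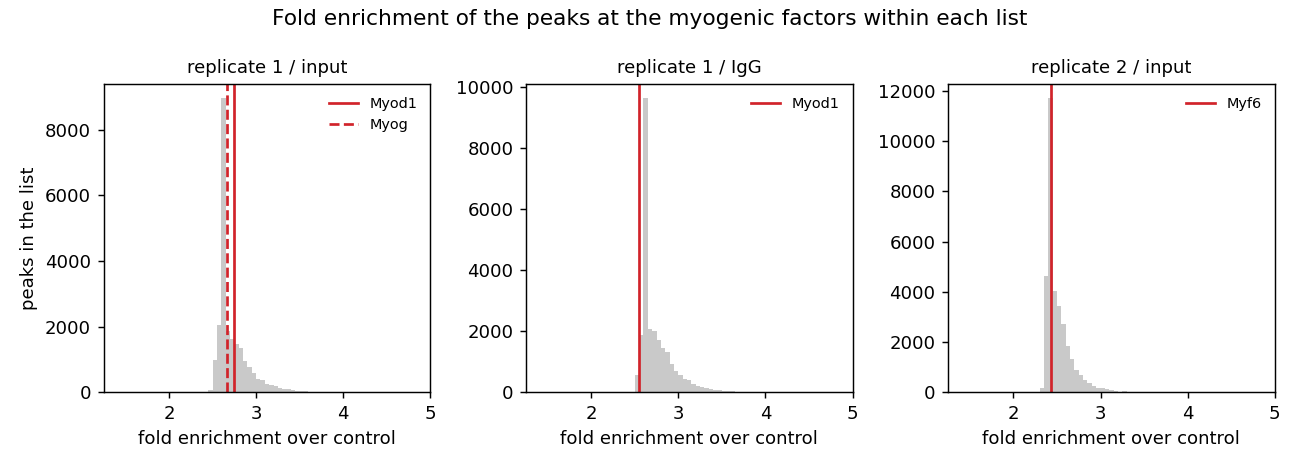
Number of peaks (y axis) by fold enrichment over the control (x axis) in each list, in bins of 0.05, with the values of the peaks at Myod1, Myog and Myf6 as red lines. The lines at 2.74 and 2.67 and at 2.43 lie in or beside the tallest part of their distributions. The line at 2.55, for replicate 1 against IgG, lies toward the low end, above 2.42% of the peaks in that list. In replicate 2, 2 peaks lie past the right edge at 5.

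None of the 4 peaks overlapped a peak of another list. For the 2 peaks in replicate 1 against input, 0 had a replicate 2 peak over them or within 1 kb. Of all 22757 replicate 1 peaks, 2.85% were overlapped by replicate 2 and 12.7% had a replicate 2 peak within 1 kb. The nearest replicate 2 peak was 17112 bp from the Myod1 peak and 12923 bp from the Myog peak. For the Myf6 peak of replicate 2, the nearest replicate 1 peak was 215822 bp away.

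Farther out, the surroundings of the members differed. Within 50 kb of the Myod1 5′ end replicate 1 had 4 peaks with each control and replicate 2 had 5. Peaks of both replicates came near each other on either side. Upstream, a replicate 1 peak of 274 bp (chr7:46348670-46348943) lay in the lincRNA gene 1700025L06Rik, 27531 bp from the Myod1 5′ end. The IgG-called list held a peak over it, and a replicate 2 peak (chr7:46347877-46347962) was 708 bp away. Downstream, around the start of Kcnc1, a potassium channel gene, replicate 2 had 3 peaks between 18397 and 21743 bp from the Myod1 5′ end, and the replicate 1 peak inside Kcnc1 was 910 bp from the nearest of them. The IgG-called list had no peak near that Kcnc1 peak, its closest being 24678 bp away. At both places the replicates, as called against input, had peaks less than 1 kb apart, without an overlap of 1 base.

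Around Myog the input-called and the IgG-called list of replicate 1 each held 1 peak within 50 kb, replicate 2 held 2, and the closest pair from different lists was 8248 bp apart. Around Myf5 and Myf6 replicate 1 had 0 peaks with either control, and replicate 2 had the same 2 peaks for both genes. Among protein-coding genes, the 5′ end had a replicate 1 peak within 50 kb for 46.7% (input-called) and 48.1% (IgG-called), and a replicate 2 peak for 65.6%.

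The base composition of the 4 printed peaks varied. The intronic Myod1 peak had 58.6% G and C and 5 CpG dinucleotides, compared with a median of 46.9% and 2 among the 3020 peaks of its list within 10% of its length. The IgG-called Myod1 peak had 51.4% G and C and 0 CpG, in long runs of purines. The Myog peak had 58.7% and 1 CpG, and the Myf6 peak 38.0% and 1 CpG. The E-box letters CANNTG, which read alike on both strands, occurred 3 times in the intronic Myod1 peak, without overlap, and 0 times in each of the others. Of peaks of like length in that list, 66.7% held at least 1 such match, so a match there was common.

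The members' 5′ ends also differed in CpG content. The ratio of observed to expected CpG over 1 kb on each side of the 5′ end was 0.535 at Myod1, 0.376 at Myf5, 0.295 at Myog and 0.290 at Myf6. The median of protein-coding genes was 0.474. Only Myod1 was above it. In each gene's window CpG-rich stretches were joined from windows of 200 bases with at least 50% G and C and a ratio of at least 0.6. At Myod1 the longest, of 826 bp (chr7:46376555-46377380), lay over most of exon 1 and the start of intron 1, and 0 of its bases lay under a peak in any list. The intronic peak overlapped a shorter stretch of 368 bp by 143 bases, whose ratio over its full length was 0.512. Myog had 0 such stretches in its window.

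To set the family beside its pathway, genes of muscle development were examined in 3 lists. The first held 13 regulators that act upstream of the myogenic factors in trunk or head muscle. Of these, 12 (92.3%) had a peak in both replicates, compared with 15.7% of all protein-coding genes, and Meox1, a homeobox gene of the somites, had 0 in every list. The median window of these regulators was 26865 bp, longer than the 12593 bp of the myogenic factors and close to the 27425 bp of all protein-coding genes. Coverage was highest at Lbx1, a homeobox gene of migrating limb muscle precursors, with 11.8% in replicate 1 and 10.4% in replicate 2 (11.1% ± 0.991, SD, n = 2). Tcf21, a bHLH factor of head muscle precursors, followed with 9.20% and 3.31% (6.25% ± 4.16). Pax3, which acts upstream of Myod1 in the embryo, had 31 input-called and 35 IgG-called peaks in replicate 1 and 17 in replicate 2, and Pax7, the satellite cell factor, had 27, 34 and 8. They covered 4.70% ± 2.54 and 4.11% ± 2.46. Msc, another bHLH factor of head muscle, was covered to 3.48% ± 0.615. The other 7 genes with a peak in both replicates were covered to between 0.239% and 1.78% on average. The median coverage over this list was 1.02% in replicate 1 and 1.07% in replicate 2, compared with 0% in both for all protein-coding genes.

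The second list held 16 partners and inhibitors, namely Mef2 factors, E proteins, Id proteins and other factors that restrain myogenic bHLH activity. Of all protein-coding genes 15.7% had a peak in both replicates, and in this list 2 genes (12.5%) did. They were Twist1, a bHLH factor of mesenchyme that inhibits Myod1, with 1.32% ± 0 (SD, n = 2), and the E protein gene Tcf12, with 0.0820% ± 0.0299. There were 8 of 16 genes with 0 peaks in every list, which also held for 51.0% of all protein-coding genes. Coverage at Twist1 was 1.32% in each replicate against input, from 2 peaks in replicate 1 and 1 in replicate 2. Called against IgG, replicate 1 had 1 peak there and 0.609%, so the equal values depend on the control.

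A further list held 30 genes of muscle fibres, for fusion, contraction, excitation and the synapse. A peak in both replicates was present in 10 (33.3%), compared with 15.7% of all protein-coding genes. Per 10 kb of window this list had 0.182 replicate 1 peaks and 0.135 replicate 2 peaks, and all protein-coding genes had 0.103 and 0.139. Among these 10 genes the highest coverage was at Acta1, skeletal muscle actin, with 6 peaks and 8.01% in replicate 1 but 1 peak and 0.547% in replicate 2 (4.28% ± 5.28, SD, n = 2). It was followed by the myosin heavy chain gene Myh3 (0.727% ± 0.836), the calcium channel gene Cacna1s (0.430% ± 0.346), Myh2 (0.417% ± 0.213) and the myosin light chain gene Myl4 (0.398% ± 0.341). The other 5 of these 10 were covered to at most 0.352%. The SD exceeded the mean at Acta1 and Myh3.

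The nearest relatives in protein class were described by 25 other bHLH genes of neural, heart, limb, paraxial, gut or blood lineages. Their windows had a median of 12713 bp, close to the 12593 bp of the myogenic factors. With either control 20 of 25 had a replicate 1 peak, 18 had a replicate 2 peak, and 18 (72.0%) had one in both replicates. The share in both was 15.7% over all protein-coding genes and 6.16% over those with a window of at most 15 kb. Median coverage was 5.09% in replicate 1 and 4.65% in replicate 2, compared with 0.183% and 0% over the myogenic factors. The highest were Olig2 (16.5% ± 7.58, SD, n = 2), Neurod2 (16.1% ± 5.11), Olig1 (14.96% ± 4.87) and Neurog2 (13.3% ± 10.1), all factors of the nervous system. The genes Mesp1, Mesp2, Neurod4, Neurod6 and Scx had 0 peaks in every list, as Myf5 did. Per 10 kb of window there were 3.13 replicate 1 peaks and 1.90 replicate 2 peaks at these bHLH genes, 0.425 and 0.213 at the myogenic factors and 0.103 and 0.139 at all protein-coding genes. No test was run between the lists, because the genes of a list are not replicates, and the gap is given as a description. With peaks kept only at a p-value of 0.001 or lower, 2 upstream regulators and 2 other bHLH genes had a peak in both replicates.

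**Figure D3:**
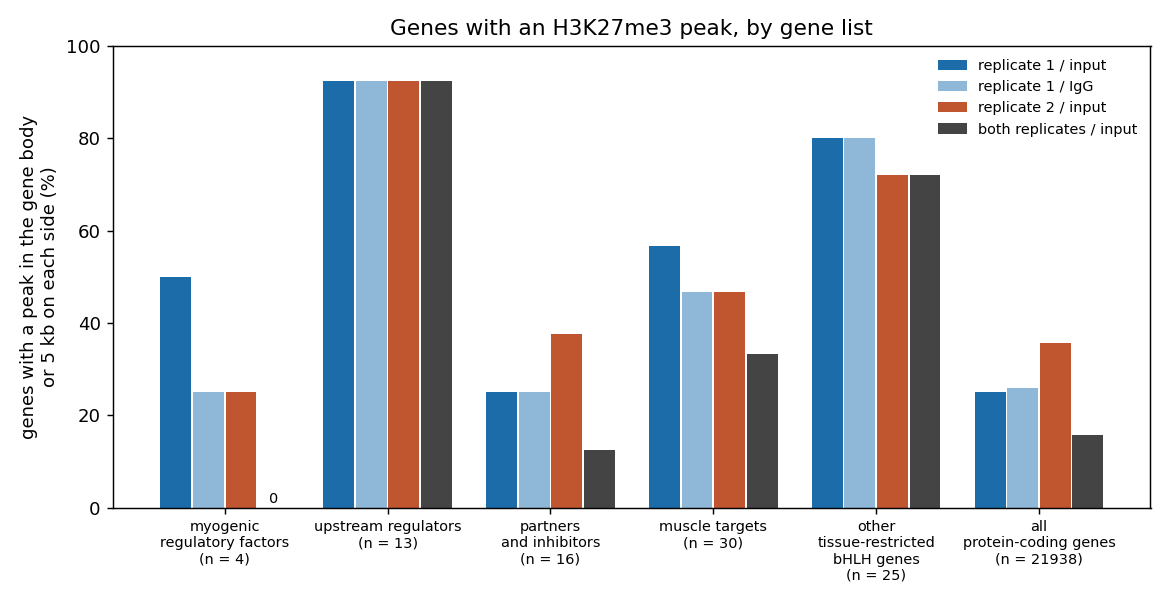
Share of genes (%, y axis) with at least 1 H3K27me3 peak in the gene or its 5 kb flanks, for each gene list and each peak list, with the share in both replicates in dark grey. The myogenic factors are the list without a dark bar (0 of 4), beside 92.3% for upstream regulators, 72.0% for other bHLH genes and 15.7% for all protein-coding genes. For protein-coding genes with a window of at most 15 kb, not drawn, the share was 6.16%, so 0 of 4 is also what most such genes show.

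CpG content at the 5′ end was compared between genes with and without a peak in both replicates. The ranges overlapped for the other bHLH genes. Of these 25 genes, 18 had a peak in both replicates, 20 in either replicate and 5 had none in any list. The group without a peak in both thus also holds genes with a peak in 1 replicate. The median ratio of observed to expected CpG was 0.683 in the 18 other bHLH genes with a peak in both replicates (range 0.317 to 0.865) and 0.494 in the 7 without (range 0.187 to 0.780). It was 0.599 in the 12 upstream regulators with a peak in both (range 0.460 to 0.749) and 0.317 at Meox1, the only gene of that list without. Of the myogenic factors, Myod1 at 0.535 and Myf5 at 0.376 lay within the range of the marked bHLH genes, and Myog and Myf6 below it. Each of the myogenic factors also lay within the range of the 7 bHLH genes without a peak in both. Only Myod1 lay within the range of the marked upstream regulators. The part of CpG content in the count of peaks was not tested.

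**Figure D4:**
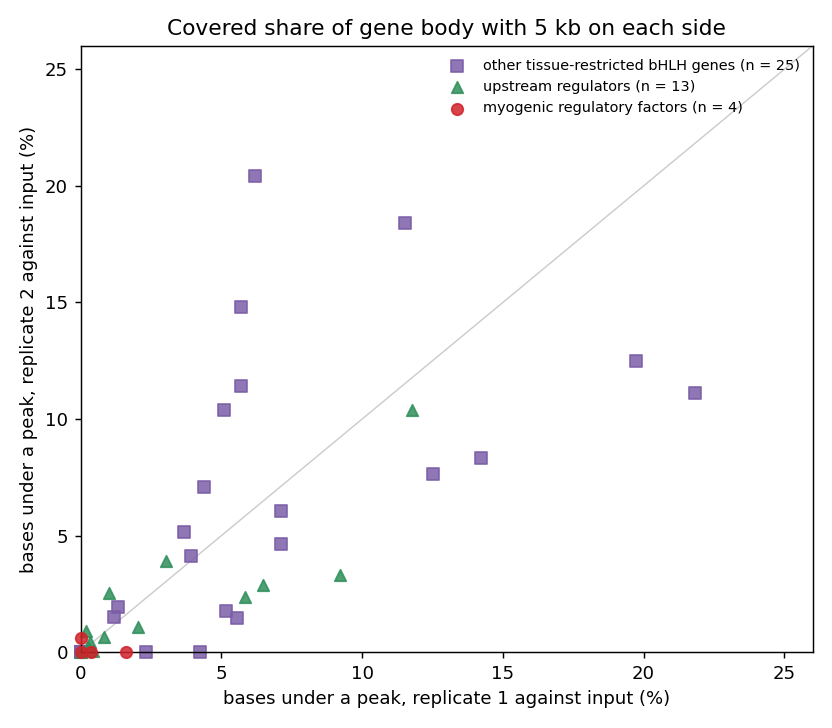
Share of bases under a peak (%) in the gene and its 5 kb flanks in replicate 1 (x axis) and replicate 2 (y axis), both against input, with 1 point per gene and the line of equal values in grey. The 4 myogenic factors (red circles) lie on an axis or at 0, at most 1.61% in replicate 1 and 0.597% in replicate 2, while 12 of the 25 other bHLH genes (purple squares) lie above 4% in both.

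Genes that mark the tissue and its possible admixtures were counted in the same way. A peak in both replicates was present at 5 of 7 dental mesenchyme genes, 1 of 5 dental epithelium genes and 2 of 4 genes of endothelium or blood. It was present at 1 of 5 muscle lineage genes, the last being Pax7. The share over all protein-coding genes was 15.7%. The muscle lineage genes were the 4 myogenic factors and Pax7, each already counted above, so their count repeats those results. Median windows of these lists were 33456, 25151, 79650 and 12626 bp in the same order, and 27425 bp for all protein-coding genes, so the counts are not on an equal footing. Among the mesenchyme genes, only Barx1 (2.26% ± 2.104, SD, n = 2) and Pax9 (1.98% ± 0.467) were covered above the highest mean of a myogenic factor. The other mesenchyme genes averaged between 0.143% and 0.795%, below Myod1 at 0.804%. Peak counts do not measure expression, so that these values do not show which cells the chromatin came from.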

How the data were processed

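The members and gene lists were chosen with earlier results of these data known. According to the methods, BWA alignments to GRCm38 were sorted with SAMtools, and uniquely mapped reads were passed to MACS2 2.1.1 (the submitters' processing notes also name Partek) in broad mode at p below 0.005. Duplicate tags beyond 1 at a position were dropped, and whichever library of a pair was larger was scaled down, per the file headers. The deposited pileup (a signal: overlapping tags averaged over the peak) was divided here by the scaling factor (0.780 and 0.805 for replicate 1 against input and IgG, 1 for replicate 2) to give tags. The deposited fold enrichment is a ratio to local background. With a pseudocount of 1 on both terms and a genome-wide background it was recovered to within 1% for 78.5%, 63.7% and 75.9% of peaks (in the order of the lists), so it is shrunk where depth is low. MACS p-values and q-values were deposited as −log10. The headers state that q-values would not be calculated, and that column held a value other than 0 for 1, 0 and 245 peaks.

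Peaks were overlapped with GENCODE M21 genes (at least 1 base) and coverage is the share of bases of a gene and its 5 kb flanks under a peak. Sequence came from GRCm38.p6, and 0 peaks lay past a chromosome end. Named genes were all members and, per other list, at most 5 genes with a peak in both replicates, by highest mean coverage, plus genes with 0 peaks in every list where these were at most 5. The genes around the members (Kcnc1, Ppfia4, 1700025L06Rik) were named after their values were seen. For 1 gene that the rule names, the result is not reported here. Genes most like a member were sought only for members with a peak in all 3 lists, of which there were 0. Peak overlap was checked on simulated windows. Python 3.11.15, NumPy 2.4.6, SciPy 1.17.1 and Matplotlib 3.10.9 were used. Wilson intervals cover counting error only. No test between groups of samples was made, since each list is 1 library against 1 control. Alternatives were peak cutoffs, window, overlap, control, peak number and leaving out a replicate.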

Additional observations from a re-analysis of the deposited data

How the results depend on the processing

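No paired analysis was possible because the results come from no test: the lists hold only peaks already called from an H3K27me3 library and its control together, with no value per region for each library. The number of myogenic factors with a peak in both replicates was 0 under every alternative except 10 kb flanks and single replicates. With 10 kb flanks it was 1 (Myog). It was 1 without replicate 1 and 2 without replicate 2, where 35.7% and 25.0% of all protein-coding genes had a peak. For the other alternatives the share over all protein-coding genes is not given here, so their counts are not set against it. At a p-value of 0.001 or lower, mean coverage over the members was 0%, and the genes with a peak in both replicates were 2 upstream regulators, 0 partners and inhibitors, 0 muscle targets and 2 other bHLH genes. At a fold enrichment of 3 or higher, coverage was 0% and these counts were 0, 0, 0 and 1. At a q-value of 0.05 or lower, coverage was 0% and all 4 counts were 0. These cutoffs keep fewer peaks by construction. The gap between the myogenic factors and the other lists in counts of genes with a peak in both replicates is thus present at the deposited cutoff and has no contrast at the q-value cutoff. The gene body alone raised mean coverage to 0.966%, and that of Myod1 to 3.87%, through the intronic Myod1 peak, and gave 1 partner or inhibitor, as did 2 kb flanks. With the gene body alone, 8 upstream regulators, 7 muscle targets and 14 other bHLH genes had a peak in both replicates. These counts were 11, 8 and 17 with 2 kb flanks and 12, 13 and 18 with 10 kb flanks. With replicate 2 reduced to the peak number of replicate 1, there were 0 partners and inhibitors and 6 muscle targets. Single replicates gave 4 to 6 partners and inhibitors and 14 to 17 muscle targets, 12 upstream regulators each, and 18 to 20 other bHLH genes. Peaks within 1 kb of the 5′ end in both replicates stayed at 0 of 4 under each alternative run, and at 2 kb. At 2 kb the intronic Myod1 peak lies inside the distance, in replicate 1 only. The share of replicate 1 peaks at the members that replicate 2 overlapped had no value at the 3 stricter cutoffs, where 0 such peaks were left. Mean pileups of 4.14 to 6.07 tags at the 4 peaks leave large counting error.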
